A study of Mus musculus with 6 samples.

Results

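The genes described here are grouped as regulators of NF-kB feedback and of the decay of inflammatory mRNAs. Not all of them encode inhibitors. They are 10 genes taken by symbol: Tnfaip3, Tnip1 and Tnfaip2, then Birc2, Birc3 and Traf1, then Zc3h12a, Zfp36, Zfp36l1 and Zfp36l2. Each symbol matched 1 gene identifier among the 55487 genes of the deposited tables. RNA came from mouse chondrocytes of knee cartilage, strain background C57B/6, the cell type that builds cartilage matrix. All cultures had received extracellular vesicles, small membrane particles shed by cells, for 24 h, dosed at 10 µg/ml by their protein. The vesicles came from macrophages that were unstimulated in 3 libraries (M-EV) and stimulated with lipopolysaccharide (LPS) of bacteria in 3 libraries (M-LPS-EV). Cells without vesicles were not analysed here, so each value compares the vesicle types and is not a response to vesicles as such.

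NF-kB is a transcription factor that turns on inflammatory genes when receptors for cytokines or bacterial products are engaged. Among its targets are genes whose proteins stop the signal, so that a burst of activity limits itself. A20, the product of Tnfaip3, removes and edits ubiquitin chains on signalling proteins, and the adaptor ABIN1, from Tnip1, brings it to them. The cIAP ubiquitin ligases, from Birc2 and Birc3, work with TRAF proteins on receptor complexes. At a later step, the endonuclease Regnase-1, from Zc3h12a, and the zinc finger proteins of the tristetraprolin family, from Zfp36, Zfp36l1 and Zfp36l2, bind 3′ UTRs of cytokine mRNAs and have them degraded.

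Expected counts summed to between 20239626 and 25712667 per library. Of all genes 14604 were tested, and 31.6% of them differed between the vesicle types at an adjusted p under 0.05 by edgeR's quasi-likelihood test, 16.4% higher and 15.2% lower with M-LPS-EV. The chondrocyte label was checked on 10 cartilage markers, among them Col2a1, Acan and Sox9. Their summed TPM, a level per transcript length, was 51040 to 51570 in the M-EV libraries and 42350 to 43280 in the M-LPS-EV libraries, and 9 of the 10 were lower with M-LPS-EV. In RNA of whole cultures, fewer cells of a type and less RNA per cell cannot be told apart. Of 18 macrophage markers 12 were tested, 5 rose (Lyz2, Cd74, Adgre1, Cd14 and Itgam) and none fell, with a summed TPM of 47.65 to 51.02 against 56.55 to 62.64. Other members of the list went the opposite way: C1qa had 37 counts over the M-EV and 2 over the M-LPS-EV libraries, C1qb 34 and 5, and C1qc 14 and 2, all too few to be tested, and Fcgr3 had a log2 fold change of -0.47 that did not pass. None of the 18 was at 0 in all libraries, and the pan-leukocyte marker Ptprc had 23 counts against 20. Summed TPM of 8 neutrophil markers was 1.04 to 1.37 against 2.59 to 5.14, of which Camp alone went from a mean of 0.047 to 2.28 TPM and S100a8 from 0.703 to 0.467 TPM, with Ly6g and Elane at 0 throughout. Their part in the results below was not tested. The labels do not say whether libraries of a group came from separate animals or cultures, so p-values measure only how these samples scatter, and that scatter may be technical.

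Of the 10 regulators 8 rose with M-LPS-EV, none fell and 2, Zfp36 and Zfp36l2, did not pass the test. The background for a rise was 16.4% of all tested genes. Among the 8, 6 rose by at least 1 on the log2 scale, a step that 2.13% of all tested genes made. The median log2 fold change of the 10 was 1.06, against 0.003 over all tested genes. The 10 genes were chosen with earlier results of these data known, so contrasts with the background are descriptions only. In CPM, counts scaled to a common library total with TMM factors, every M-LPS-EV library lay above every M-EV library for those 8 genes; the background for such a separation was 21.5%. When the test asked for a change of more than 1.2-fold, 7 remained, all but Traf1, against 5.20% of all tested genes. Of the 10, 9 passed the filter on low counts in both groups and Traf1 only through the M-LPS-EV libraries.

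**Figure D1:**
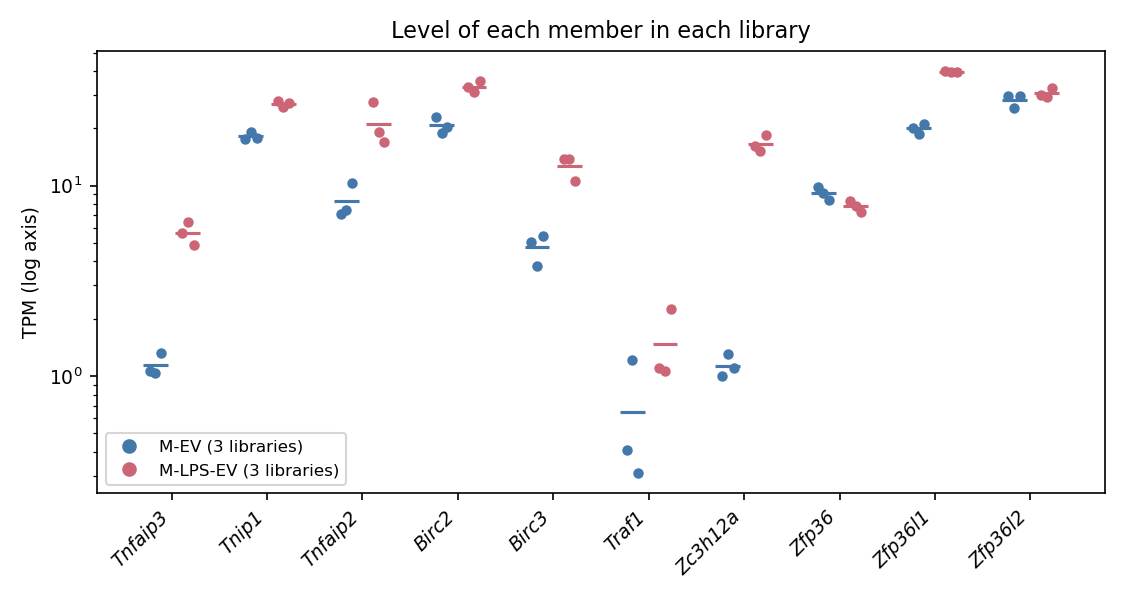
TPM (log axis) of each of the 10 genes in each library; points are libraries and bars are group means, M-EV in blue and M-LPS-EV in red. Zc3h12a and Tnfaip3 show the widest separation, the points of Traf1 and of Zfp36l2 overlap between the groups, and those of Zfp36 lie slightly lower with M-LPS-EV.

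The A20 gene Tnfaip3 (ENSMUSG00000019850, mm10 chromosome 10, 19000910 to 19015657, minus strand) rose nearly 5-fold. It was at 2.55, 2.63 and 3.19 CPM in the M-EV libraries and at 13.5, 14.4 and 11.9 CPM in the M-LPS-EV libraries. The lowest M-LPS-EV library was thus well above the highest M-EV library. The means were 2.79 ± 0.350 and 13.3 ± 1.24 CPM (SD, n = 3 each), and the log2 fold change was 2.26 with a standard error of 0.12 (edgeR adjusted p = 4.32e-14). Counted down from the highest rise, its log2 fold change ranked 80 among the 14604 genes. Even so it stayed one of the less abundant of the 10 genes, at 5.67 ± 0.780 TPM (SD, n = 3) with M-LPS-EV.

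Its partner Tnip1 (ENSMUSG00000020400, chromosome 11, 54910785 to 54962917, minus strand) began higher and changed less. Tnip1 was at 21.5, 21.4 and 19.6 CPM with M-EV and at 29.7, 30.4 and 31.3 CPM with M-LPS-EV. The groups did not overlap and the spread within each was about 1 CPM. Its log2 fold change was 0.55 with a standard error of 0.05 (edgeR adjusted p = 1.13e-08). Per Tnip1 count there were 0.119, 0.123 and 0.163 Tnfaip3 counts in the M-EV libraries and 0.453, 0.474 and 0.381 in the M-LPS-EV libraries. The log2 of this ratio was higher with M-LPS-EV by 1.70, with no overlap (exact two-sided permutation p = 0.1, the smallest that 3 against 3 libraries allow).

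Both genes carry letters of the kind that NF-kB dimers bind close to their start. A search for GGG, any 2 bases and then TTTCC or TTCCC, on both strands, ran over RefSeq promoters of build GRCm38.p6 from 250 bases before to 50 bases after the start. It found a match in 3.24% of 32851 promoters, in 4.52% of the 10604 tested genes with an entry and in 2 of the 9 regulators with one. The windows of the 2 are shown because they are the members' only matches, with the matched letters in capitals, 5′ to 3′ on the gene's strand. The Tnfaip3 window is chr10:19015393-19015442 and the Tnip1 window chr11:54962968-54963017, both on the minus strand.
Tnfaip3: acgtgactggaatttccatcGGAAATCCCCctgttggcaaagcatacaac
Tnip1: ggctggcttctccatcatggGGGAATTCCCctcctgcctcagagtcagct
The Tnfaip3 match begins 12 bases before the start and reads on the opposite strand. The Tnip1 match begins 57 bases before the start and reads the same on both strands. A match describes the letters only, and binding was not measured.

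Tnfaip2 (ENSMUSG00000021281, chromosome 12, 111442469 to 111455018, plus strand), a TNF-inducible gene related to the exocyst subunit Sec6, rose about 2.5-fold. It was at 14.4, 13.7 and 14.5 CPM with M-EV and at 37.4, 35.5 and 34.5 CPM with M-LPS-EV. Within each group the libraries lay close together. The log2 fold change was 1.33 with a standard error of 0.06 (edgeR adjusted p = 5.39e-16). Its summed TPM spread more widely, from 7.12 to 10.28 and from 17.06 to 27.42. The spread came with 2 short transcripts of few reads, Tnfaip2-205 at 7.58 TPM in M-LPS-EV replicate 1 and Tnfaip2-209 at 3.30 TPM in M-EV replicate 3. The full-length Tnfaip2-201 was steady at 6.94, 6.40 and 6.33 TPM against 16.87, 16.18 and 15.81 TPM.

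The cIAP genes Birc2 (ENSMUSG00000057367, chromosome 9, 7818227 to 7837064) and Birc3 (ENSMUSG00000032000, chromosome 9, 7848699 to 7873186) lie side by side on the minus strand, 11635 bases apart, and both rose. Birc2, which encodes cIAP1, was at 32.7, 29.4 and 29.9 CPM with M-EV and at 47.2, 45.9 and 49.1 CPM with M-LPS-EV. Birc3, which encodes cIAP2, was at 5.10, 4.94 and 5.32 CPM and at 12.5, 14.7 and 11.1 CPM. Neither gene's groups overlapped. The log2 fold change of Birc2 was 0.62 with a standard error of 0.05 (edgeR adjusted p = 6.29e-11). That of Birc3 was 1.32 with a standard error of 0.11 (edgeR adjusted p = 3.6e-10).

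Birc2 stayed the more abundant of the pair in every library. Per length, Birc3 made up 18.1%, 16.7% and 21.2% of the pair's summed TPM with M-EV and 29.6%, 30.7% and 23.1% with M-LPS-EV. The groups did not overlap, although M-LPS-EV replicate 3 came close to M-EV replicate 3. Short forms of few reads add to the Birc3 sum in both groups. Examples are Birc3-203 at 1.61 TPM in M-EV replicate 3 and Birc3-205 at 3.18 TPM in M-LPS-EV replicate 1. The log2 ratio of Birc3 to Birc2 counts moved from -2.58 ± 0.09 to -1.90 ± 0.25 (SD, n = 3 each), a difference of 0.68 (exact two-sided permutation p = 0.1, the smallest possible). The genes share 65 stretches of 50 bases in their transcripts, counted from every base, so that neighbouring stretches overlap and are not separate segments. Of all such stretches 1.49% in Birc2 and 7.38% in Birc3 also occur in some other gene, so a small share of their reads could have been split between genes.

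Traf1 (ENSMUSG00000026875, chromosome 2, 34941750 to 34961772, minus strand), an adaptor that joins cIAPs to TNF receptors, was the rarest of the 10. Its counts were 10, 19 and 8 with M-EV and 28, 23 and 24 with M-LPS-EV, or 0.392, 0.862 and 0.355 CPM against 1.31, 0.972 and 1.18 CPM. The groups were apart on this scale by little, since M-EV replicate 2 reached near the lowest M-LPS-EV library. On the TPM scale they overlapped. The log2 fold change of 1.11, with a standard error of 0.34, passed the test (edgeR adjusted p = 0.0139). The call was lost when M-EV replicate 1, M-EV replicate 3 or M-LPS-EV replicate 1 was left out (edgeR adjusted p = 0.0847, 0.0783 and 0.0724). It was also lost with offsets for effective length (edgeR adjusted p = 0.13) and on TPM (limma adjusted p = 0.184 to 0.311). With M-EV replicate 2 left out, the log2 fold change was 1.60 (edgeR adjusted p = 0.00293).

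Among the decay factors Zc3h12a (ENSMUSG00000042677, chromosome 4, 125118423 to 125127840, minus strand) changed most, and most of all 10 genes. Its counts were 37, 42 and 24 with M-EV and 420, 403 and 367 with M-LPS-EV. In CPM these were 1.45, 1.91 and 1.06 against 19.7, 17.03 and 18.0. Every M-LPS-EV library was far above every M-EV library, and the fold of 12.35 was of the fitted values. The log2 fold change was 3.63 with a standard error of 0.13 (edgeR adjusted p = 1.77e-17), rank 36 of 14604 counted down from the highest rise. Its level per length went from 1.13 ± 0.153 to 16.6 ± 1.62 TPM (SD, n = 3 each). That moved it from about the level of Tnfaip3 and Traf1 with M-EV to a level whose libraries overlapped those of Tnfaip2 at the low end with M-LPS-EV.

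The tristetraprolin family split. Zfp36l1 (ENSMUSG00000021127, chromosome 12, 80107754 to 80113013, minus strand) was at 31.9, 30.0 and 33.7 CPM with M-EV and at 64.4, 63.8 and 63.7 CPM with M-LPS-EV. About 3.12% of its stretches of 50 bases also occur in its pseudogene copy Zfp36l1-ps, so few reads could be shared. It rose with little spread, by a log2 fold change of 1.00 with a standard error of 0.04 (edgeR adjusted p = 7.49e-16). Zfp36 (ENSMUSG00000044786, chromosome 7, 28376784 to 28380253, minus strand), which encodes tristetraprolin itself, was at 13.5, 12.7 and 11.6 CPM and at 11.7, 11.1 and 10.1 CPM. The highest M-LPS-EV library just overlapped the lowest M-EV library in CPM. On the TPM scale its groups were apart by little, at 9.79, 9.21 and 8.46 TPM against 8.36, 7.79 and 7.32 TPM. Its log2 fold change of -0.20, with a standard error of 0.08, did not pass the test (edgeR adjusted p = 0.0729), but did once M-EV replicate 3 was left out (-0.26, edgeR adjusted p = 0.0345).

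Zfp36l2 (ENSMUSG00000045817, chromosome 17, 84183931 to 84187947, minus strand) was at 56.4, 49.2 and 56.0 CPM with M-EV and at 57.7, 56.3 and 62.7 CPM with M-LPS-EV. The groups overlapped by a hair, and its log2 fold change of 0.13 had a standard error of 0.05 (edgeR adjusted p = 0.0543). It lay on the edge of the threshold. The adjusted p was 0.0308 with no count filter and 0.0377 when genes had to average 50 counts, each by edgeR. It was 0.0348, 0.0371 and 0.0322 by edgeR when M-EV replicate 1, M-EV replicate 3 or M-LPS-EV replicate 2, respectively, was left out. The log2 fold change was between 0.06 and 0.16 in all alternatives.

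The balance of the family therefore differed between the groups. Zfp36l2 made up 49.9%, 47.9% and 49.9% of the summed TPM of the family with M-EV, and 38.3%, 38.2% and 41.0% with M-LPS-EV. Zfp36l1 went from 33.7%, 34.9% and 35.8% to 51.1%, 51.6% and 49.8%, so that it was the most abundant of the family in every M-LPS-EV library and in no M-EV library. The share of Zfp36 was 16.4%, 17.2% and 14.3% against 10.6%, 10.2% and 9.2%. Summed TPM of the family was 59.5, 53.7 and 59.1 against 78.6, 76.6 and 79.5.

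**Figure D2:**
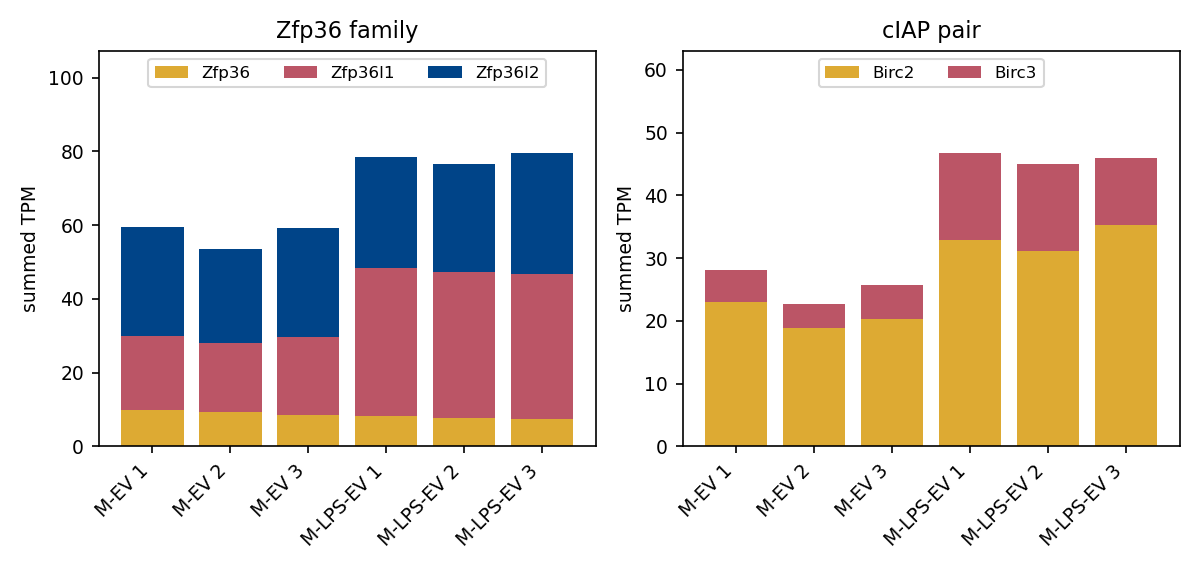
Stacked TPM of the tristetraprolin family (Zfp36, Zfp36l1, Zfp36l2) and of Birc2 with Birc3 in each library, on a linear axis from 0. The Zfp36l2 segment is the largest of its family in the M-EV bars and the Zfp36l1 segment in the M-LPS-EV bars.

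Ratios within a library need no scaling between libraries. Per Zfp36l2 count there were 0.566, 0.611 and 0.601 Zfp36l1 counts with M-EV and 1.12, 1.13 and 1.02 with M-LPS-EV, a log2 difference of 0.88. Per Zfp36l1 count there were 0.421, 0.425 and 0.344 Zfp36 counts and 0.182, 0.174 and 0.159, a log2 difference of -1.21. The ratio of Zfp36 to Zfp36l2 was 0.239, 0.259 and 0.207 against 0.203, 0.197 and 0.162, a log2 difference of -0.33. None of the 5 ratios computed, these and those of Birc3 to Birc2 and Tnfaip3 to Tnip1, overlapped between the groups; 42.2% of all tested genes did not overlap in either direction, and the share among other gene pairs was not computed. Each had the smallest p that the design allows (exact two-sided permutation p = 0.1, and 0.1 after Benjamini-Hochberg adjustment over the 5).

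**Figure D3:**
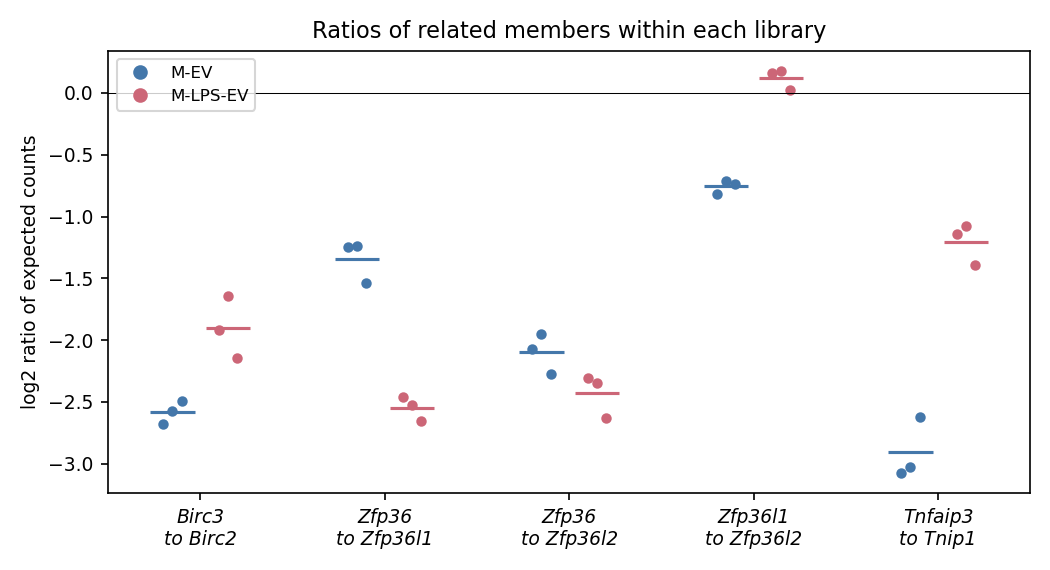
Log2 ratios of counts within each library for 5 pairs of the 10 genes; points are libraries and bars are group means. The groups are apart in each pair, by 1.70 for Tnfaip3 to Tnip1 and by -0.33 for Zfp36 to Zfp36l2.

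Several of the 10 mRNAs hold the AU-rich letters that tristetraprolin proteins are known to bind. The heptamer TATTTAT was counted on the sense strand in the 3′ UTR of each gene's most abundant transcript with an annotated one (GENCODE M21, GRCm38). It was present in 5 of the 10 regulators and in 28.0% of 12866 tested genes. At least 2 copies were present in 4 of the 10 and in 9.61% of tested genes. Long UTRs hold more such letters by length alone. Among UTRs of like length the share was 18.0% to 39.4% for the 5 genes with the heptamer. For the 5 without it the share was 16.8% to 33.6%. Zfp36, Zfp36l1 and Zfp36l2 held 3 copies each, Tnfaip3 held 2 and Birc3 held 1, while Tnip1, Tnfaip2, Birc2, Traf1 and Zc3h12a held none. The sites of the tristetraprolin family are shown because family members that rose and that did not pass the test hold the same number. Capitals mark the heptamer, with 10 bases to each side, 5′ to 3′ on the minus strand, at chr7:28376967-28376993, chr7:28376952-28376978 and chr7:28376927-28376953 for Zfp36, chr12:80108423-80108449, chr12:80108382-80108408 and chr12:80108168-80108194 for Zfp36l1, and chr17:84184915-84184941, chr17:84184867-84184893 and chr17:84184681-84184707 for Zfp36l2.
Zfp36 site 1: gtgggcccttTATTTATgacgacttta
Zfp36 site 2: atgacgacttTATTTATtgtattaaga
Zfp36 site 3: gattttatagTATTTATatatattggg
Zfp36l1 site 1: tatcaaaacgTATTTATtgccaaacta
Zfp36l1 site 2: attttgttcaTATTTATcgggatgaca
Zfp36l1 site 3: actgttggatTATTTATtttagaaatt
Zfp36l2 site 1: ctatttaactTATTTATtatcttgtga
Zfp36l2 site 2: gtccatactgTATTTATcgagtatgat
Zfp36l2 site 3: ttgtatgtaaTATTTATttcattaatt
The windows of neighbouring Zfp36 sites overlap. The Tnfaip3 sites were at chr10:19001765-19001791 and chr10:19001035-19001061, and the Birc3 site at chr9:7848782-7848808.

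In order of level per length, Zfp36l2 stood first with M-EV at 28.3 ± 2.24 TPM (SD, n = 3). Birc2, Zfp36l1 and Tnip1 followed at 20.7 ± 2.05, 19.98 ± 1.197 and 18.2 ± 0.879 TPM with overlapping libraries. Zfp36 at 9.15 ± 0.667 TPM and Tnfaip2 at 8.29 ± 1.74 TPM overlapped as well, and Birc3 at 4.78 ± 0.873 TPM stood apart below them. Tnfaip3, Zc3h12a and Traf1 were lowest, near 1 TPM. With M-LPS-EV, Zfp36l1 stood first at 39.7 ± 0.329 TPM, ahead of Birc2 at 33.1 ± 2.10 TPM and Zfp36l2 at 30.7 ± 1.74 TPM, whose libraries overlapped. Tnip1 at 26.95 ± 0.897 TPM, Tnfaip2 at 21.2 ± 5.48 TPM and Zc3h12a came next, with Tnfaip2 overlapping both, and then Birc3 at 12.8 ± 1.84 TPM. Zfp36 came below Birc3 at 7.82 ± 0.521 TPM, above Tnfaip3 and Traf1 only. Its place below Birc3 rested in part on short Birc3 forms of few reads. The main form Birc3-201 alone was at 8.20, 9.47 and 7.39 TPM and overlapped the libraries of Zfp36. The 10 genes together summed to between 106.6 and 115.6 TPM with M-EV and to between 189.6 and 203.3 TPM with M-LPS-EV.

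The transcript estimates named the forms behind these sums. The tables list 59 transcripts of the 10 genes, of which 21 were tested and 6 rose, with none lower, against a background of 2.45% higher, and 4.45% called in either direction, of 37245 tested transcripts. The protein-coding forms Tnfaip3-201, Tnfaip2-201, Birc3-201, Zc3h12a-201 and Zfp36l1-201 rose by 2.24, 1.33, 1.36, 3.56 and 1.01 on the log2 scale, close to their genes' values (edgeR adjusted p = 0.000829, 0.000222, 0.00362, 0.00127 and 0.000247). They carried between 66.4% and 100% of their gene's mean TPM. The sixth, Tnip1-202, rose by 0.58 with a standard error of 0.10 (edgeR adjusted p = 0.0339), a call that was lost when any single library was left out. The other large Tnip1 form, Tnip1-206, did not pass at 0.18 with a standard error of 0.16 (edgeR adjusted p = 0.729), and was given 35.85%, 38.95% and 31.59% of the gene's abundance with M-EV and 24.98%, 24.50% and 31.46% with M-LPS-EV.

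Zc3h12a also has a short annotated form with a retained intron, Zc3h12a-202 of 660 bases. It had 0, 0 and 2.6 estimated counts with M-EV and 18.6, 29.0 and 40.9 with M-LPS-EV. All M-LPS-EV libraries were above all M-EV libraries, and it did not pass the test (edgeR adjusted p = 0.0714). It did pass over transcripts with 10% or more of their gene (edgeR adjusted p = 0.0351) and on log2(TPM + 1) (limma adjusted p = 0.0121). It was given 0%, 0% and 40.87% of the gene's abundance in the M-EV libraries, the last on 2.6 counts. In the M-LPS-EV libraries it was given 20.54%, 30.03% and 41.22%, so these shares overlapped between the groups.

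Birc2 was spread over several forms. Birc2-204 was the most abundant by mean over all libraries. In M-LPS-EV replicates 2 and 3, at 10.06 and 11.85 TPM, it was behind Birc2-202. Birc2-204 had a log2 fold change of 0.32 with a standard error of 0.19 (edgeR adjusted p = 0.547). Birc2-202 had one of 1.04 with a standard error of 0.21 (edgeR adjusted p = 0.056), at 5.06, 6.20 and 6.93 TPM against 8.88, 14.10 and 13.95 TPM. The form with a retained intron, Birc2-203, had one of 0.71 with a standard error of 0.18 (edgeR adjusted p = 0.0987). None of them passed in this fit. Birc2-202 lay near the threshold, with an edgeR adjusted p of 0.035 when transcripts had to average 50 counts, 0.0338 over transcripts with 10% or more of their gene, and 0.0252 when M-LPS-EV replicate 1 was left out. Zfp36 was split between Zfp36-201, with a log2 fold change of 0.02 (edgeR adjusted p = 0.981), and Zfp36-202, with one of -0.42 and a standard error of 0.17 (edgeR adjusted p = 0.303). The libraries of Zfp36-202 did not overlap, at 5.50, 5.10 and 5.0 TPM against 4.06, 3.12 and 4.30 TPM. No Traf1 transcript had counts enough to be tested.

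**Figure D4:**
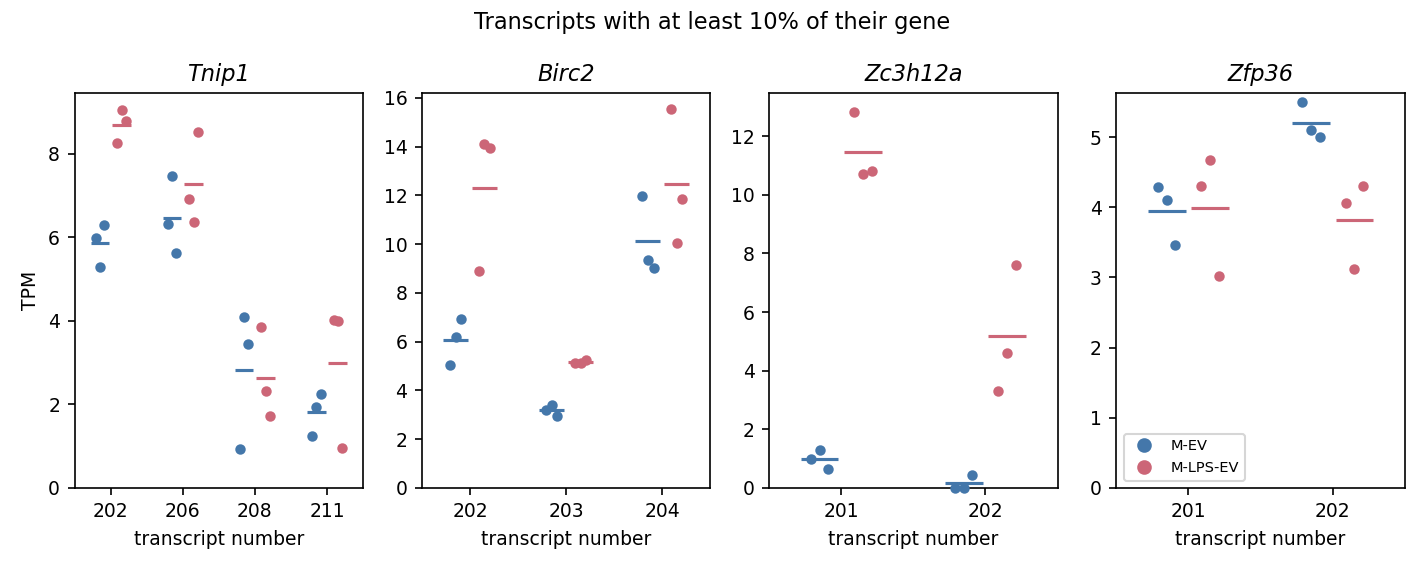
TPM of the main transcripts of Tnip1, Birc2, Zc3h12a and Zfp36 by library (points) with group means (bars). Zc3h12a-201 and Zc3h12a-202 are both higher in every M-LPS-EV library, while the forms of Birc2 and Zfp36 differ in how far their groups are apart.

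The other genes of these routes, listed by function, had list medians near 0, with single genes such as Irak3 and Ikbke above 1; the difference from the 10 regulators was not tested. The background for the lists was 16.4% of all tested genes higher and 15.2% lower, and no list was tested against it. Of 15 tested genes for ubiquitin editing around A20, 3 rose, 3 fell and 9 did not pass, with a median log2 fold change of -0.01. Cyld, another deubiquitinase that restrains NF-kB, rose by 0.25 with a standard error of 0.04 (edgeR adjusted p = 3.47e-05), a call that was lost on TPM (limma adjusted p = 0.0582). Of 28 tested TRAF, IAP and kinase genes 10 rose (35.7%), 2 fell and 16 did not pass, with a median of 0.09. Among them, Traf2, which recruits the cIAPs, went from 22.2 ± 0.229 to 36.6 ± 2.59 CPM, a log2 fold change of 0.72 with a standard error of 0.05 (edgeR adjusted p = 6.64e-11). Irak3, an inhibitory kinase homologue of Toll-like receptor signalling, went from 3.19 ± 0.127 to 9.21 ± 1.17 CPM, with a log2 fold change of 1.53 and a standard error of 0.13 (edgeR adjusted p = 4.05e-10). Ikbke rose by 1.14 and Traf3 by 0.37 on the log2 scale (edgeR adjusted p = 1.22e-09 and 2.47e-08).

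**Figure D5:**
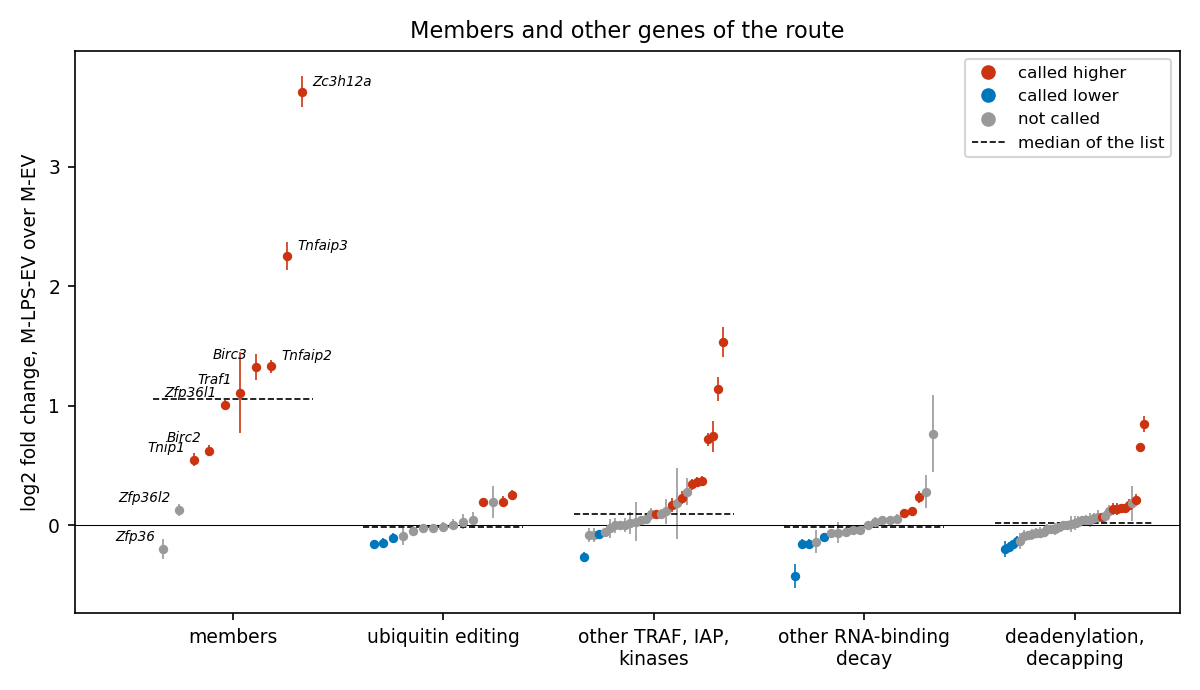
Log2 fold change, M-LPS-EV over M-EV, with standard error for the 10 genes and for the tested genes of 4 lists, sorted within each; colour gives the call and dashed lines the list medians. The median is 1.06 for the 10 genes and between -0.02 and 0.09 for the lists.

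Of 20 other tested RNA-binding genes of decay, 3 rose, 4 fell and 13 did not pass, with a median log2 fold change of -0.02. The background for this list and the next was again 16.4% of all tested genes higher and 15.2% lower. Arid5a, which protects mRNAs from Regnase-1, rose by 0.24 with a standard error of 0.05 (edgeR adjusted p = 0.000458), and Elavl1, the stabilising protein HuR, fell by 0.16 with a standard error of 0.04 (edgeR adjusted p = 0.00467). Both calls were lost with offsets for effective length (edgeR adjusted p = 0.0972 and 0.382). Of 37 genes for deadenylation, decapping and the exosome, 9 rose (24.3%), 4 fell and 24 did not pass, with a median of 0.02. The antiproliferative genes Btg1 and Btg2, whose proteins bind the CCR4-NOT deadenylase, were the leading pair. Btg1 went from 167 ± 4.06 to 263 ± 8.25 CPM, by 0.65 with a standard error of 0.03 on the log2 scale (edgeR adjusted p = 3.51e-16). Btg2 went from 16.9 ± 0.803 to 30.3 ± 2.46 CPM, by 0.85 with a standard error of 0.06 (edgeR adjusted p = 5.73e-11).

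Of 20 mRNAs known as targets of Regnase-1 or tristetraprolin proteins 13 were tested, of which 12 rose, none fell and 1 did not pass. The background for a rise was 16.4% of all tested genes. Several of the 13 reached the test through their M-LPS-EV counts alone, such as Il6 with 1 and Ccl3 with 4 counts over the M-EV libraries. The count of targets that rose is therefore a description. So is the median log2 fold change of the tested ones, 3.70, which is the value of Ccl3 itself. Cxcl1 and Ccl2, with 99 and 79 counts over the M-EV libraries, had log2 fold changes of 6.19 and 5.18 (edgeR adjusted p = 3.03e-28 and 6.56e-22). Among targets better counted in both groups, Lcn2, an iron-carrier-binding lipocalin, had one of 4.598 (edgeR adjusted p = 3.99e-33). The NF-kB cofactor gene Nfkbiz had one of 3.02, and Ier3, an early response gene, one of 2.29 (edgeR adjusted p = 5.75e-24 and 1.1e-23). Smaller changes were seen in others. Ptgs2, the inducible prostaglandin synthase, was at 24.4, 23.9 and 20.1 CPM against 42.6, 44.8 and 42.6 CPM. Its log2 fold change was 0.93 with a standard error of 0.06 (edgeR adjusted p = 1.11e-12). Vegfa rose by 0.50 with a standard error of 0.03 (edgeR adjusted p = 4.39e-14). Plau, with 488 counts over the M-EV and 485 over the M-LPS-EV libraries, had a log2 fold change of 0.09 with a standard error of 0.11 and did not pass (edgeR adjusted p = 0.593). The cytokine Tnf was too rare to be tested, with 3 counts over the M-EV libraries and 18 over the M-LPS-EV libraries. Decay rates were not measured, so levels here do not separate synthesis from decay.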

How the data were processed

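The submitters' processing notes name STAR (an aligner), RSEM, DESeq2 and the build mm10. Versions, the strand setting and the gene models were not given in the sources used here. Each deposited table lists 142699 transcripts of 1 library. The authors deposited RSEM's expected count, which need not be whole, and beside it TPM, scaled by effective length. Per the file headers, IsoPct is the percent of a gene's abundance that falls to the transcript, and lengths are in bases. Groups and replicate numbers came from the sample titles.

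Expected counts were summed per gene, rounded and filtered with filterByExpr (minimum count 10, minimum total 15), leaving 14604 genes that hold 99.9% of all counts. After TMM scaling, edgeR 4.0.16 (R 4.3.3) fitted a quasi-likelihood model on group. A call is a two-sided Benjamini-Hochberg adjusted p under 0.05 over all tested genes. Transcripts were tested likewise over 37245 transcripts; uncertainty in sharing reads between forms and between near-identical genes was not modelled, so those p-values may be too small. Tests were first run on simulated counts drawn from the fitted means and dispersions, so that check could not show misfit of the model. Opposite-strand gene models overlap Tnip1, Tnfaip2, Zfp36, Zfp36l1 and Zfp36l2; the 4 of them that had counts listed summed to 0, 1, 22 and 40.

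The members and lists were chosen with earlier results of these data known. Named were all 10 members, up to 4 tested genes with the smallest p of each other list, any decay target and member transcripts holding 10% or more of the gene's TPM; fewer are given in the text. Coordinates are from GENCODE M21 (99.14% of transcript identifiers matched). Alternatives were RLE and upper-quartile scaling, no filter, a mean count of at least 50, length offsets, a replicate block, each library left out, DESeq2 1.42.0, limma-voom 3.58.1, limma-trend on log2(TPM + 1) and log2(TPM + 0.1), and a change of more than 1.2-fold; for transcripts also only those with at least 10% of their gene.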

Additional observations from a re-analysis of the deposited data

How the results depend on the processing

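Of the 10 regulators 7 kept their direction and call in the 18 alternatives run for each; Traf1, Zfp36 and Zfp36l2 did not, with the values given above, and between 7 and 9 were called. Over all genes 4614 were called, against 2867 with effective length offsets, 2480 with limma-trend on log2(TPM + 1), 2495 on log2(TPM + 0.1), 1939 without a TPM filter and 1137 for a change of more than 1.2-fold. Same-numbered libraries of the groups did not deviate together (correlations 0.028, -0.044 and -0.019), so the numbers were not taken as pairs. With the replicate block 4519 genes and 9 members were called, Zfp36l2 being added (0.13, edgeR adjusted p = 0.0238). Transcript calls fell from 1658 to 524 with the block and to 855 to 996 without single libraries; the cause was not tested. With the block the calls of Birc3-201 (edgeR adjusted p = 0.0505) and Tnip1-202 (0.163) were lost and Birc2-202 was called (0.0494). Some transcripts near no change turned sign. Tnip1-208 had a log2 fold change of 0.0025 with the block and of -0.51 to 0.27 when single libraries were left out. Zfp36-201 had one of -0.10 to 0.19 when single libraries were left out. Traf1 rested on 8 to 19 counts per M-EV library.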
